A study of Mus musculus with 17 samples.

Results

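Transcripts of 10 genes that take up, store, export and sense iron were followed in mouse kidneys that express the PRCC-TFE3 fusion protein. The genes were chosen by name for their role: Tfrc, Slc11a2, Steap3 and Tf for uptake, Fth1, Ftl1 and Ncoa4 for storage, Slc40a1 for export, and Hfe and Ireb2 for control. They are 10 of the 35971 genes summed from the transcripts, and all 10 were among the 17011 genes with enough counts to be tested. Tf is listed as Trf in the annotation used.

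PolyA RNA of whole kidney was sequenced in 17 libraries of 5 groups, and all groups carry the lsl-PRCC-TFE3 knock-in allele, which is silent until the Cre recombinase removes a stop cassette. Cre was driven by KSP-Cre, the promoter of Cadherin 16, which is active in kidney epithelium and not in the other cells of the organ. The 4 Cre(−) kidneys have no Cre and serve as the control, and replicates 1 and 2 of them also carry HIF1af/f whereas replicates 3 and 4 carry no floxed allele. The other groups have KSP-Cre(+): PRCC-TFE3 KI (n = 3), PRCC-TFE3 KI/Hif1α KO with HIF1af/f (n = 4), PRCC-TFE3 KI/Hif2α KO with HIF2af/f (n = 3) and PRCC-TFE3 KI/Hif1α/Hif2α DKO with both (n = 3). The 13 libraries with Cre are called fusion kidneys here. The labels number the replicates without saying that each is its own mouse, so the p-values measure only the spread between these libraries. The labels give no age, and the library numbers run in blocks by group except that DKO replicate 1 lies among the Hif2α KO libraries, so for the other groups library order and genotype cannot be told apart.

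Iron enters most cells bound to transferrin (Tf), which is taken up by the transferrin receptor (Tfrc). In the endosome the ferrireductase Steap3 reduces the iron and the transporter Slc11a2 (DMT1) moves it into the cytosol, where it is used, stored in ferritin shells built from heavy (Fth1) and light (Ftl1) chains, or sent out through ferroportin (Slc40a1). Ncoa4 carries ferritin to the lysosome, where the stored iron is released. The iron regulatory proteins, encoded by Aco1 and Ireb2, bind a short hairpin called the iron-responsive element (IRE) when iron is low. Binding in a 5′ UTR blocks translation and binding in the 3′ UTR of Tfrc keeps the transcript from decay. In the kidney, the proximal tubule takes iron back from the filtrate, and TFE3 is a transcription factor of lysosomal genes.

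The hairpins are shown because they set which of the 10 transcripts the iron regulatory proteins can bind. The GENCODE M21 transcripts (GRCm38) were searched on the transcript strand for a C, 5 bases, the loop CAGTGN and 5 bases that pair with those before the loop (G with T allowed), and the loop is in capitals below. Of 21901 coding genes, 160 (0.73%) held this pattern in a UTR, and 516 (2.36%) did so when 1 unpaired base was allowed after the loop. A match is a description of the sequence and not evidence of binding.
Fth1, 5′ UTR, chr19:9982732-9982761, plus strand: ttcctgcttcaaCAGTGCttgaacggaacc
Ftl1, 5′ UTR, chr7:45459778-45459807, minus strand: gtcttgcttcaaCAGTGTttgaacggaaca
Slc40a1, 5′ UTR, chr1:45925464-45925493, minus strand: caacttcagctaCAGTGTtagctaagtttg
Tfrc, 3′ UTR, chr16:32631219-32631248, plus strand: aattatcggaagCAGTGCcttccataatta
Tfrc, 3′ UTR, chr16:32631598-32631627, plus strand: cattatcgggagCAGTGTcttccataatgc
Tfrc, 3′ UTR, chr16:32631663-32631692, plus strand: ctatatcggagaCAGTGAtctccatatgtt
Tfrc, 3′ UTR, chr16:32631710-32631739, plus strand: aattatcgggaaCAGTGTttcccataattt
Slc11a2-205, 3′ UTR, chr15:100395152-100395181, minus strand: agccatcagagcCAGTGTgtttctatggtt
Epas1, 5′ UTR, chr17:86753768-86753797, plus strand: tacaatcctcggCAGTGTcctgagactgta

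The ferritin hairpins in Fth1 and Ftl1 lie in the 5′ UTR, as does that of Slc40a1, whereas Tfrc holds 4 in its 3′ UTR. Slc11a2 is matched in 1 coding transcript, Slc11a2-205, and there, as in Epas1, only with the unpaired base allowed. Epas1 encodes Hif2α and is itself one of the genes floxed in this study. Steap3, Tf, Ncoa4, Hfe and Ireb2 held no match. RefSeq promoters (GRCm38.p6, 250 bases before to 50 after the start) were listed for 7 of the 10 genes, and none of their 14 promoters contained the sequence CACGTG on either strand, which occurs in 7.15% of all promoters in that table. At that share, 14 promoters are too few for the absence to tell anything. The paper gives the site of the MiTF/TFE family as TCAYRTGA (Y is C or T, R is A or G), and its forms without CACGTG were not searched. The shorter ACGTG, contained in CACGTG and the core of the hypoxia response element, was found on either strand in 4 of the 14, those of Ncoa4 and Tfrc, against 19.6% of all promoters.

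Total expected counts per library ranged from 16504419 to 24668827. Levels are given as CPM, counts relative to the TMM-scaled library size, and differences as log2 fold changes from edgeR's quasi-likelihood test on the counts of all 17 kidneys, with Benjamini-Hochberg adjusted p-values over the 17011 genes and a threshold of 0.05. Hif1a was at 184 to 232 CPM in PRCC-TFE3 KI and at 163 to 198 CPM in PRCC-TFE3 KI/Hif1α KO, a difference that did not pass the test (log2 fold change −0.21, adjusted p = 0.372). Epas1 was at 173 to 192 CPM in PRCC-TFE3 KI and at 136 to 149 CPM in PRCC-TFE3 KI/Hif2α KO (log2 fold change −0.33, adjusted p = 0.0788). These gene totals do not show which exons were read and include cells in which Cre is not active, so they do not check the deletions.

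The make-up of the tissue differed between Cre(−) and fusion kidneys. In PRCC-TFE3 KI against Cre(−), 31.6% of all genes tested were called higher and 29.3% lower. The counts of markers in that comparison are to be read beside these shares. All 8 proximal tubule markers fell in PRCC-TFE3 KI, and their summed level went from 15371 to 21743 CPM in Cre(−) to 494 to 811 CPM. All 6 markers of other nephron segments fell as well, from a sum of 7633 to 9260 CPM to one of 999 to 1775 CPM. Of 8 macrophage markers 7 rose, from a sum of 198 to 266 CPM to one of 1775 to 1941 CPM, of which Cd68, also a lysosomal protein, supplied 1061 to 1151 CPM, while Csf1r was at 82.8 to 84.6 CPM against 89.2 to 101 CPM in Cre(−). The 5 red cell markers summed to 383 to 896 CPM in Cre(−) and to 406 CPM in replicate 3 of PRCC-TFE3 KI, against 20.2 to 100.3 CPM in the other 12 fusion kidneys. All 4 that were tested fell in DKO kidneys against Cre(−) (27.9% of all genes, median log2 fold change −3.70). In KI, with replicate 3 high, their median was −1.77 and they did not pass. Of 7 adipocyte markers 4 (Adipoq, Cidec, Retn and Plin4) rose, and replicate 2 of PRCC-TFE3 KI stood apart with a sum of 1171 CPM against 67.2 to 119 CPM in Cre(−). Only 1 of the 7, Plin4, did not overlap, with 131 to 224 unscaled counts in Cre(−) and 4086, 6897 and 5322 in KI. Adipoq had 18 to 144 counts in Cre(−) and 89, 2367 and 150 in KI. Of 5 hepatocyte markers 1, Fgb, rose and 2, Alb and Apoa2, fell. Their sum went from 53.7 to 68.6 CPM in Cre(−) to 114 to 168 CPM in PRCC-TFE3 KI. Fgb had 69 to 111 unscaled counts in Cre(−) and 1295 to 2126 in PRCC-TFE3 KI. Alb was at or above 16.4 CPM in Cre(−) and at or below 2.93 CPM in fusion kidneys. No marker was at 0 throughout a group. In whole tissue, fewer cells of a type and less RNA per cell cannot be told apart, and the part of these shifts in the results that follow was not tested.

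**Figure D1:**
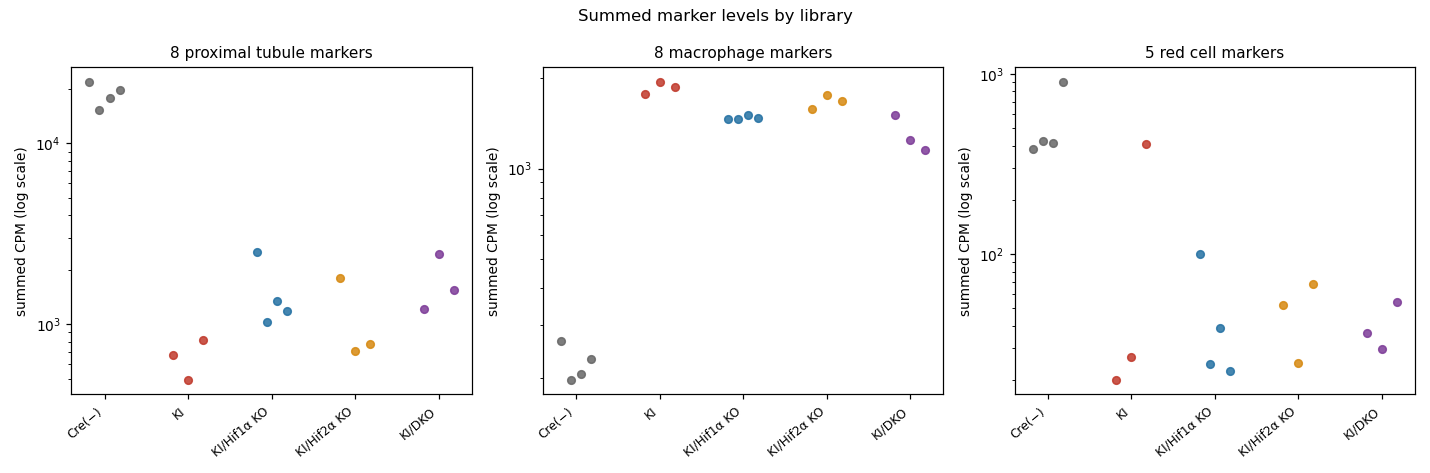
Summed CPM (log axis) of 8 proximal tubule, 8 macrophage and 5 red cell marker genes in each of 17 kidneys, by group, with 1 point per library. Proximal tubule markers are at or above 15371 CPM only in Cre(−), and 1 PRCC-TFE3 KI library, at 406 CPM, lies within the red cell range of Cre(−).

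Compared per length, in TPM (counts divided by transcript length and scaled to a fixed total per library), ferritin stood far above the rest of the pathway. In Cre(−) kidneys the mean was 5163 TPM for Fth1 and 2891 TPM for Ftl1. Ncoa4 followed at 89.4 TPM and Tf at 72.2 TPM, and Slc11a2, Slc40a1, Hfe, Tfrc, Ireb2 and Steap3 were between 13.8 and 26.1 TPM. In PRCC-TFE3 KI the mean TPM of Ftl1 (8553) was close to that of Fth1 (8333). TPM carries a shift of all genes between these groups: the median log2 fold change of PRCC-TFE3 KI against Cre(−) was 0.38 on the log2(TPM + 1) scale and 0.03 on TMM-scaled counts. Accordingly, 8843 genes were called higher and 2458 lower on that scale by limma, against 5381 and 4981 on counts. Differences between groups are given on counts, and on TPM relative to that median.

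The comparison of PRCC-TFE3 KI with Cre(−) asks what the fusion protein does to the kidney. In this comparison 8 of the 10 iron genes passed the test, against 60.9% of all 17011 genes tested. Ftl1, Slc11a2 and Tf rose (3 of 10, against 31.6% of all genes). Tfrc, Steap3, Ncoa4, Slc40a1 and Ireb2 fell (5 of 10, against 29.3%). Fth1 and Hfe did not pass. Gene positions are those of GENCODE M21 on GRCm38. The groups did not overlap for 7 of the 10 genes, against 56.6% of all genes tested, and the median log2 fold change of the 10 genes was −0.20 against 0.03 for all genes.

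**Figure D2:**
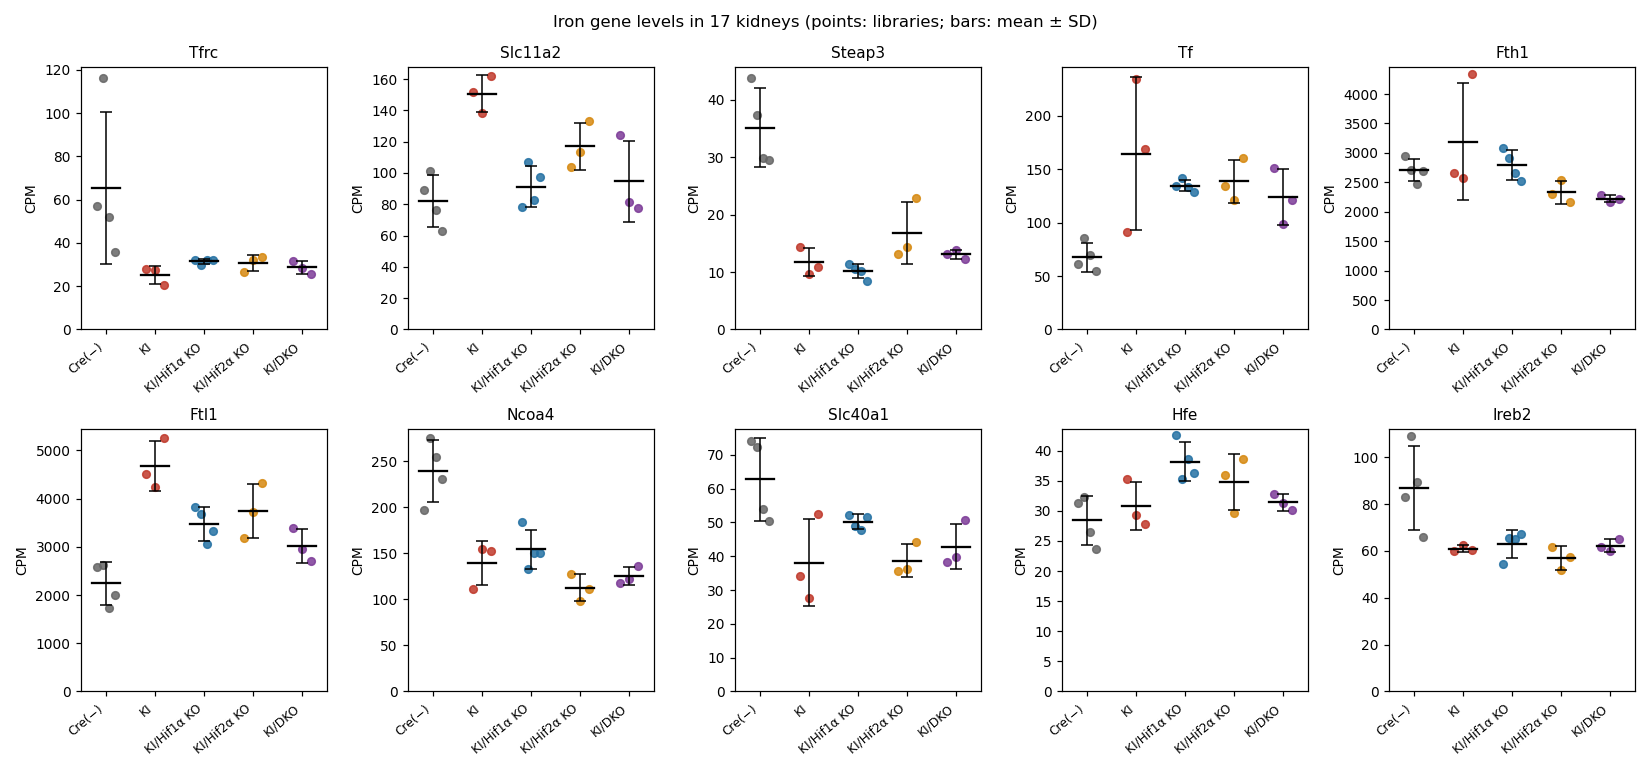
CPM of the 10 iron genes in 17 kidneys, by group (Cre(−) n = 4, PRCC-TFE3 KI n = 3, KI/Hif1α KO n = 4, KI/Hif2α KO n = 3, KI/DKO n = 3). Points are libraries, lines are means and bars are SD. Tfrc, Steap3 and Ncoa4 lie lower, and Ftl1 and Tf higher, in every fusion kidney than in every Cre(−) kidney.

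Tfrc (chr16:32608920-32632794, plus strand), the receptor for transferrin-bound iron, was at 56.9, 116, 52.0 and 35.9 CPM in Cre(−) and at 28.2, 27.3 and 20.5 CPM in PRCC-TFE3 KI. Every fusion kidney was below every Cre(−) kidney, with a highest value of 33.7 CPM against a lowest of 35.9 CPM, and the spread in Cre(−) came mostly from replicate 2. Tfrc fell by 1.37 ± 0.28 (SE) on the log2 scale, or 2.58-fold (adjusted p = 0.000595).

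Steap3 (chr1:120190757-120272705, minus strand), the endosomal ferrireductase, was at 43.8, 37.3, 29.9 and 29.5 CPM in Cre(−) and at 14.4, 9.7 and 11.0 CPM in PRCC-TFE3 KI. The groups lay well apart, and all 13 fusion kidneys were at or below 22.9 CPM. The log2 fold change of Steap3 was −1.59 ± 0.20 (SE, adjusted p = 6.41e-06), the largest of the 10 genes in either direction. Slc11a2 (chr15:100387898-100425072, minus strand), the transporter that acts after Steap3, went the other way. Its level was 89.3, 101, 76.3 and 62.7 CPM in Cre(−) and 152, 138 and 162 CPM in PRCC-TFE3 KI, with no overlap, and it rose 1.83-fold (log2 fold change 0.87 ± 0.18, adjusted p = 0.000523).

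Tf (chr9:103204001-103230444, minus strand), which encodes the iron carrier of plasma, was at 61.6, 86.0, 69.7 and 54.4 CPM in Cre(−) and at 91.1, 234 and 169 CPM in PRCC-TFE3 KI. All 13 fusion kidneys were above the 4 Cre(−) kidneys, but the KI replicates spread widely, and the highest was the one with adipocyte markers. Tf rose by 1.28 ± 0.24 on the log2 scale (adjusted p = 0.000241).

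The light chain of ferritin rose and the heavy chain did not pass. Ftl1 (chr7:45457944-45459884, minus strand) was at 2587, 2626, 1741 and 2005 CPM in Cre(−) and at 4511, 4252.5 and 5262 CPM in PRCC-TFE3 KI, a rise of 2.09-fold with no overlap (log2 fold change 1.06 ± 0.15, adjusted p = 2.05e-05). Fth1 (chr19:9980598-9985098, plus strand) was at 2945, 2718, 2476 and 2699 CPM in Cre(−) and at 2653, 2574 and 4341 CPM in PRCC-TFE3 KI. Of the 3 KI kidneys, 2 lay inside the Cre(−) range and replicate 3 lay far above it (log2 fold change 0.24 ± 0.15, adjusted p = 0.185). Without that replicate the log2 fold change of Fth1 was −0.05 (adjusted p = 0.70). The red cell markers of KI replicate 3 summed to 406 CPM, within the Cre(−) range. Those of Cre(−) replicate 4 summed to 896 CPM, with Fth1 at 2699 CPM. A link between these markers and Fth1 was not tested. Ncoa4 (chr14:32159865-32179855, plus strand), the receptor that takes ferritin to the lysosome, fell 1.72-fold, from 196.5, 276, 254 and 231 CPM to 112, 154 and 152 CPM (log2 fold change −0.78 ± 0.15, adjusted p = 0.000254). No fusion kidney reached the lowest Ncoa4 value of Cre(−).

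Slc40a1 (chr1:45908068-45926523, minus strand), the exporter of iron from cells, was at 74.2, 72.4, 53.9 and 50.4 CPM in Cre(−) and at 34.1, 27.6 and 52.5 CPM in PRCC-TFE3 KI. The groups overlapped through KI replicate 3, and the fall of 0.72 ± 0.19 on the log2 scale passed the test (adjusted p = 0.00398). The fall was 0.45 (adjusted p = 0.0738) when only the 2 Cre(−) mice without a floxed allele were used. Of the control genes, Ireb2 (chr9:54863789-54912530, plus strand), one of the 2 iron regulatory proteins, was at 83.1, 109, 89.4 and 66.0 CPM in Cre(−) and at 60.0, 62.7 and 60.4 CPM in PRCC-TFE3 KI, and it fell by 0.51 ± 0.13 on the log2 scale (adjusted p = 0.00261). Hfe (chr13:23702034-23710854, minus strand), a partner of the transferrin receptors, was at 31.3, 32.3, 26.4 and 23.7 CPM in Cre(−) and at 35.3, 29.3 and 27.8 CPM in PRCC-TFE3 KI, and the groups overlapped (log2 fold change 0.11, adjusted p = 0.428).

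On the log2(TPM + 1) scale, relative to the median of all genes, the 8 called genes had the same signs, at −1.0 for Tfrc, −1.40 for Steap3, −0.64 for Ncoa4, −0.66 for Slc40a1, −0.41 for Ireb2, 0.95 for Slc11a2, 1.22 for Tf and 1.21 for Ftl1. Taken without that reference, Ncoa4, Slc40a1 and Ireb2 did not pass in limma (adjusted p = 0.119, 0.187 and 0.866), whereas Fth1 and Hfe did, with log2 fold changes of 0.67 and 0.61.

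Across all fusion kidneys, 5 of the 10 genes (Tfrc, Steap3, Ncoa4, Ftl1 and Tf) separated the 13 kidneys from the 4 Cre(−) kidneys without overlap, against 40.7% of all genes tested. In PRCC-TFE3 KI/Hif1α/Hif2α DKO against Cre(−), 7 of the 10 genes passed (58.3% of all genes), of which Ftl1 and Tf rose (30.4% of all genes) and Tfrc, Steap3, Ncoa4, Slc40a1 and Ireb2 fell (27.9%). This comparison shares its Cre(−) libraries with the one above, so the values are only set side by side. Steap3 differed from Cre(−) by −1.43 ± 0.20 on the log2 scale in DKO kidneys, Tfrc by −1.19 ± 0.28 and Ncoa4 by −0.93 ± 0.15 (adjusted p = 2.08e-05, 0.00182 and 6.28e-05). Ireb2 was 0.48 lower (adjusted p = 0.0042), Slc40a1 0.55 lower (adjusted p = 0.0206) and Tf 0.86 higher (adjusted p = 0.00551) on the same scale. On log2(TPM + 1), Slc40a1 and Ireb2 were 0.45 and 0.37 below the median of all genes, which itself moved by 0.45, and the uncentred values were 0.01 and 0.08. Uncentred, Tfrc and Ncoa4 were at −0.52 and −0.23 and did not pass either (limma, adjusted p = 0.0826 and 0.161).

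The smallest differences from Cre(−) in the DKO were those of Hfe, Slc11a2 and the ferritins. Slc11a2 was 0.20 ± 0.18 above Cre(−) on the log2 scale in DKO kidneys (adjusted p = 0.351), Ftl1 0.43 ± 0.15 above it (adjusted p = 0.0241), Fth1 0.29 ± 0.15 below it (adjusted p = 0.113) and Hfe 0.14 ± 0.12 above it (adjusted p = 0.326). The Ftl1 call was lost when either Cre(−) replicate 3 or 4 or DKO replicate 1 was left out (adjusted p from 0.0642 to 0.114), and the log2 difference was 0.13 (adjusted p = 0.691) with counts of coding transcripts alone and 0.22 (adjusted p = 0.234) against the floxed Cre(−) kidneys alone. The Slc40a1 call was lost when Cre(−) replicate 1 or 2 or DKO replicate 1 or 2 was left out (adjusted p from 0.0582 to 0.0856), and its log2 difference was −0.27 (adjusted p = 0.278) against the Cre(−) kidneys without a floxed allele alone.

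**Figure D3:**
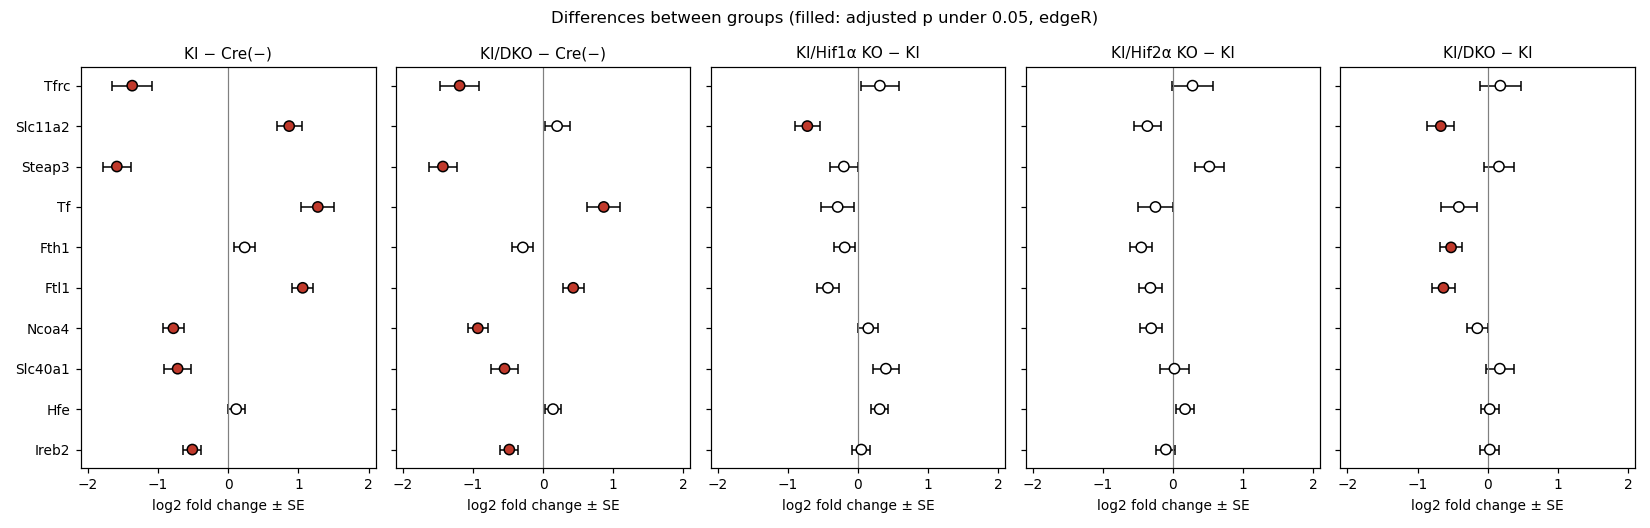
Log2 fold changes with SE (edgeR) of the 10 iron genes in 5 comparisons, with filled points where the adjusted p was under 0.05. Of the 10 genes, 8 and 7 are filled against Cre(−), and 1, 0 and 3 in the comparisons of the Hif1α KO, Hif2α KO and DKO kidneys with PRCC-TFE3 KI.

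The comparisons of the knockout groups with PRCC-TFE3 KI ask which of these levels depend on Hif1α or Hif2α, and they share the 3 KI libraries. Slc11a2 is a known target of Hif2α in the intestine, and Tf, Tfrc and Hmox1 are known targets of Hif1α in other cells. With Hif1α lost, 1 of the 10 genes passed (5.44% of all genes, and 2.86% fell), and it was Slc11a2. Its level was 78.5, 107, 82.5 and 97.3 CPM in PRCC-TFE3 KI/Hif1α KO against 152, 138 and 162 CPM in PRCC-TFE3 KI, without overlap and close to the 62.7 to 101 CPM of Cre(−). The fall was 0.72 ± 0.18 on the log2 scale, or 1.65-fold (adjusted p = 0.0294). The call lay near the threshold: it was lost when any of the 3 KI replicates or replicate 1 or 3 of the knockout was left out, with adjusted p from 0.0583 to 0.0889 and a log2 fold change between −0.78 and −0.66.

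With Hif2α lost, 0 of the 10 genes passed in edgeR (1.39% of all genes). DESeq2 also called 0, and 2 genes, Steap3 and Fth1, had an unadjusted p under 0.05. Slc11a2 was at 104, 114 and 133 CPM in PRCC-TFE3 KI/Hif2α KO, each value below the lowest KI value, and the log2 fold change was −0.36 ± 0.19 (adjusted p = 0.31). Steap3 was at 13.1, 14.4 and 22.9 CPM, with replicate 3 high (log2 fold change 0.52 ± 0.21, adjusted p = 0.193). Between the 2 single knockouts 0 of the 10 genes passed in edgeR (0.429% of all genes), although 2 genes, Steap3 and Ncoa4, had an unadjusted p under 0.05, and DESeq2 called 1 gene, Steap3 (log2 fold change −0.73, adjusted p = 0.0222). The log2 difference in Slc11a2 between the knockouts was −0.36 ± 0.18 (adjusted p = 0.356), so that the fall was not shown to be larger with Hif1α lost than with Hif2α lost.

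With both lost, 3 of the 10 genes passed (12.7% of all genes), and all 3 fell (6.19%). Slc11a2 was at 124, 81.6 and 77.9 CPM in DKO kidneys, with replicate 1 nearest to the KI values and the others within the Cre(−) range (log2 fold change −0.67 ± 0.19, adjusted p = 0.0328). Ftl1 was at 3401, 2946 and 2703 CPM, all below KI and above Cre(−), and it fell by 0.63 ± 0.16 (adjusted p = 0.0224). Fth1 was at 2276, 2158 and 2221 CPM, below every KI and every Cre(−) kidney, and it fell by 0.52 ± 0.16 against KI (adjusted p = 0.0433). The order against Cre(−) depended on the scale, and that difference did not pass in edgeR (adjusted p = 0.113). In TPM, not set against the median of all genes, Fth1 was at 6315 to 6458 in DKO and 4809 to 5483 in Cre(−) kidneys. The 3 calls against KI depended on KI replicate 3, the KI kidney whose red cell markers lay within the Cre(−) range. Without it the log2 fold changes were −0.62 for Slc11a2, −0.54 for Ftl1 and −0.24 for Fth1, with adjusted p of 0.107, 0.0914 and 0.21. Without DKO replicate 2 or without DKO replicate 3, 0 of the 10 genes passed in edgeR. The call of Slc11a2 was also lost without KI replicate 1 (adjusted p = 0.0579) and that of Fth1 without DKO replicate 1 (adjusted p = 0.0729).

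Tfrc, Steap3, Tf, Ncoa4, Slc40a1, Hfe and Ireb2 passed in none of the 3 comparisons with KI in edgeR. Tfrc was at 32.1, 29.7, 31.9 and 32.1 CPM in Hif1α KO, at 26.8, 31.9 and 33.7 CPM in Hif2α KO and at 31.9, 28.5 and 25.7 CPM in DKO kidneys, and no comparison with KI passed (log2 fold changes 0.31, 0.28 and 0.18, with adjusted p of at least 0.556). Tf was at 129 to 142 CPM in Hif1α KO, 121 to 160 CPM in Hif2α KO and 98.7 to 151 CPM in DKO kidneys, all inside the wide KI range. Its log2 fold changes against KI were −0.29, −0.25 and −0.41 (adjusted p of at least 0.303), and without KI replicate 1, the lowest, the last was −0.70 (adjusted p = 0.0322). Ncoa4 ranged from 98.2 to 184 CPM over the 10 knockout kidneys and Ireb2 from 51.7 to 67.4 CPM. Hfe was highest in Hif1α KO, at 35.4 to 42.6 CPM, each above the KI values of 27.8 to 35.3 CPM, but the log2 difference of 0.31 ± 0.12 did not pass (adjusted p = 0.144). Slc40a1 was at 47.7 to 52.3 CPM in Hif1α KO, and against KI its log2 fold change was 0.40 ± 0.19 (adjusted p = 0.232). It was 0.70 (adjusted p = 0.0421) without KI replicate 3, whose Slc40a1 level of 52.5 CPM stood above the other KI kidneys.

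The tissue markers also moved between fusion kidneys. In Hif1α KO kidneys 3 of 8 (2.57% of all genes) and in DKO kidneys 5 of 8 (6.53%) proximal tubule markers rose against KI. Their sums were 1030 to 2492 CPM and 1209 to 2435 CPM, against 494 to 811 CPM in KI. In Hif2α KO 0 of 8 passed (0.741% of all genes rose), 5 had an unadjusted p under 0.05, and the sum was 714 to 1805 CPM. Between the single knockouts 0 of 8 passed. Markers of other nephron segments summed to 2458 to 5169 CPM (Hif1α KO), 2241 to 4243 CPM (Hif2α KO) and 3195 to 5338 CPM (DKO), against 999 to 1775 CPM in KI. Of the 8 macrophage markers, Adgre1 and Mrc1 rose and Cd68 fell in Hif1α KO against KI (median log2 fold change 0.26), and Adgre1 rose and Cd68 fell in DKO kidneys (median 0.17). Of all genes, 2.57% rose and 2.86% fell in Hif1α KO, and 6.53% rose and 6.19% fell in DKO kidneys. In Hif2α KO 0 of the 8 passed (1.39% of all genes, median 0.35), while 5, Cd68 among them, had an unadjusted p under 0.05. Cd68 was at 476.5 to 732 CPM in Hif1α KO and at 348.5 to 577 CPM in DKO kidneys, below every KI value. It was lower in Hif2α KO too, with unscaled counts of 14265, 15562 and 15489 against 19629, 19693 and 20178 in KI. Cdh16, whose promoter drives Cre, was at 577 to 704 CPM in KI, 749 to 922 CPM in Hif1α KO and 781 to 812 CPM in DKO kidneys, against 1119 to 1221.5 CPM in Cre(−). Its unscaled counts in Hif2α KO were 17143, 16637 and 15975, against 12255, 10709 and 10952 in KI. The Hif2α KO libraries held 18001108 to 21711031 counts in total and the KI libraries 16504419 to 18173319. The part of these shifts in the Slc11a2 and ferritin differences was not tested.

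The transcript forms of Slc11a2 were compared because the form with the IRE and the form without it end in different 3′ UTRs. Slc11a2-205, of 4415 bases and with the IRE shown above, was at 16.7 ± 3.74 TPM (SD, n = 4) in Cre(−) and at 47.3 ± 3.16 TPM (n = 3) in PRCC-TFE3 KI. Slc11a2-201, of 3025 bases and without an IRE match, was at 5.61 ± 2.14 TPM in Cre(−) and at 4.70 ± 0.82 TPM in PRCC-TFE3 KI. In the knockouts Slc11a2-205 was at 26.6 ± 5.12 TPM (Hif1α KO), 36.9 ± 5.61 TPM (Hif2α KO) and 30.5 ± 9.05 TPM (DKO), and Slc11a2-201 stayed between 4.87 and 5.76 TPM on average. Slc11a2-203, a fragment of 718 bases, averaged 2.21 TPM in Cre(−) and 9.55 TPM in PRCC-TFE3 KI. These levels rest on how the authors' estimation shared reads between overlapping transcripts. They are plain TPM and not set against the median of all genes, which rose by 0.38 (log2) in KI against Cre(−). Relative to that median Slc11a2-201 was lower in KI than in Cre(−), and the rise of Slc11a2-205 was smaller than its TPM show.

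As a share of the coding Slc11a2 transcripts, the IRE form made up 73.3, 62.3, 62.6 and 64.8% in Cre(−) and 80.3, 72.1 and 77.5% in PRCC-TFE3 KI. The groups overlapped through Cre(−) replicate 1, and the difference of 10.9 percentage points did not pass a two-sided exact permutation test (p = 0.114, adjusted p = 0.274 over 12 tests of shares and ratios). The share was 69.9 ± 1.80% in Hif1α KO, 70.5 ± 1.76% in Hif2α KO and 72.5 ± 3.42% in DKO kidneys, 6.71, 6.11 and 4.16 percentage points below KI. In the exact test these 3 differences had p of 0.114, 0.1 and 0.3. The smallest p that these group sizes allow is 0.0571 for 4 against 3 and 0.1 for 3 against 3, so none of the 12 tests could pass 0.05.

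**Figure D4:**
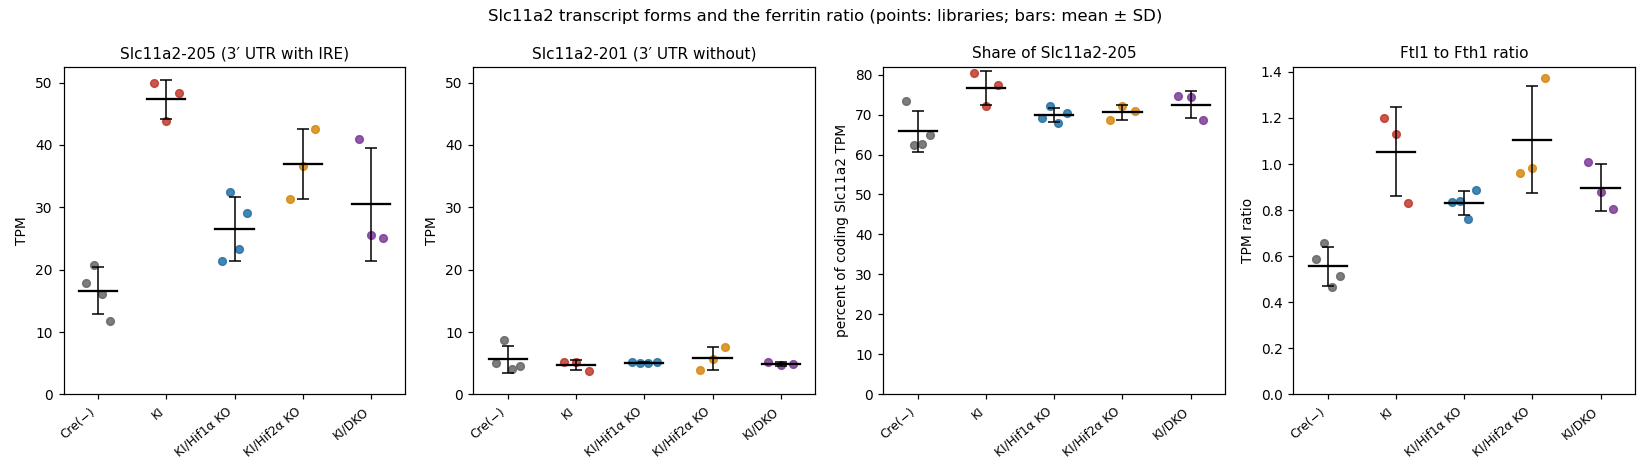
TPM of the Slc11a2 transcripts with and without an IRE match in the 3′ UTR, the share of the first in percent of coding Slc11a2 TPM, and the ratio of Ftl1 to Fth1 TPM, in 17 kidneys by group. Points are libraries, lines are means and bars are SD. Slc11a2-205 averages 47.3 TPM in PRCC-TFE3 KI against 16.7 TPM in Cre(−), and Slc11a2-201 is near 5 TPM in every group. The TPM are not set against the median of all genes, which rose by 0.38 (log2) in KI against Cre(−).

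The balance of the ferritin chains was compared as a ratio. The ratio of Ftl1 to Fth1 TPM was 0.587, 0.658, 0.467 and 0.514 in Cre(−) and 1.20, 1.13 and 0.833 in PRCC-TFE3 KI. All 3 KI kidneys, and all 10 knockout kidneys, were above the highest Cre(−) value. The difference in mean log2 ratio was 0.92, with the smallest p the exact test allows (p = 0.0571, adjusted p = 0.274). Against KI the log2 ratio differed by −0.33 in Hif1α KO, 0.07 in Hif2α KO and −0.22 in DKO kidneys, and the groups overlapped in each case (exact p = 0.229, 0.9 and 0.3). Both totals were shared between transcripts: Fth1-206, of 333 bases, held 46.4 to 49.0% of the Fth1 TPM on average over the groups, and Ftl1-202, a transcript annotated for nonsense-mediated decay, held 34.9 to 46.4% of the Ftl1 TPM. With the full-length transcripts Ftl1-201 and Fth1-201 alone, an alternative added after seeing the data, the log2 ratio of KI against Cre(−) differed by 0.62. The groups then overlapped, since Cre(−) replicate 2 (2885 and 2945 TPM) had a higher ratio than KI replicate 3 (4634 and 5528 TPM). The ratio of that Cre(−) kidney was also above those of all Hif1α KO kidneys.

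The ratio of Tfrc to Fth1 TPM, uptake against storage, was 0.00289, 0.00583, 0.00296 and 0.00208 in Cre(−) and 0.00177, 0.00142 and 0.000801 in PRCC-TFE3 KI. The groups did not overlap, and the mean log2 ratio was 1.34 lower in KI (exact p = 0.0571, adjusted p = 0.274). Against KI it was 0.26 higher in Hif1α KO, 0.55 higher in Hif2α KO and 0.48 higher in DKO kidneys on the log2 scale, with overlap each time (exact p = 0.686, 0.3 and 0.3). With 1 library left out these differences ranged from −0.07 to 0.50, from 0.22 to 0.79 and from 0.15 to 0.72.

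The wider pathway, a list of 68 genes of iron and haem of which 61 were tested, changed in PRCC-TFE3 KI against Cre(−) in 48 genes, 19 higher and 29 lower, with a median log2 fold change of −0.25 against 0.03 for all genes. Of all genes tested, 60.9% were called in this comparison, 31.6% higher and 29.3% lower, and the counts of its sub-lists are to be read beside these shares. Among 11 genes of mitochondrial iron and iron-sulphur clusters, 10 fell (29.3% of all genes) and 0 rose (31.6%), with a median of −0.76. The cysteine desulphurase Nfs1 fell by 1.3 and the scaffold Iscu by 0.98 on the log2 scale. Of 19 haem genes 11 fell and 4 rose (29.3% and 31.6% of all genes). The genes that fell include the synthesis enzymes Alad, Uros, Urod, Cpox, Ppox and Fech and the transporter Abcg2 (log2 fold change −2.14, adjusted p = 6.89e-08). The genes that rose include Hmox1, the enzyme that opens haem and frees its iron, at 15.8 to 22.1 CPM in Cre(−) and 92.0, 103 and 188 CPM in PRCC-TFE3 KI (log2 fold change 2.75).

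Among 15 tested genes of uptake and reduction, 7 rose and 5 fell (31.6% and 29.3% of all genes). Lcn2, a carrier of iron-loaded siderophores and a kidney injury marker, rose by 5.73 on the log2 scale (adjusted p = 6.56e-08), and Cd163, the haemoglobin receptor of macrophages, rose by 4.14 (adjusted p = 3.68e-07). Hp, the haemoglobin-binding protein haptoglobin, rose by 5.08 (adjusted p = 0.00189), but its level of 200.5 CPM in the KI kidney with adipocyte markers stood far above the 6.1 and 35.3 CPM of the others. Lrp2, the megalin receptor of the proximal tubule, fell by 3.96, and the proximal tubule markers fell with it. Mcoln1, the lysosomal channel that releases iron and calcium, rose from 59.5 to 67.3 CPM to 185 to 215 CPM (log2 fold change 1.66). The ferroxidase ceruloplasmin, Cp, rose by 3.01 and its membrane-bound relative Heph fell by 0.43. In the control of IRP activity Aco1, the other iron regulatory protein, fell by 1.61 and Fbxl5, which marks Ireb2 protein for degradation, rose by 0.29. Of the hepcidin axis, Tmprss6 fell by 2.28 (adjusted p = 5.12e-06), and Hamp, which encodes hepcidin, was at or below 0.117 CPM in every kidney.

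In the comparisons with KI the wider list changed in 4 of 61 genes in Hif1α KO, 1 in Hif2α KO and 16 in DKO kidneys, against 5.44%, 1.39% and 12.7% of all genes. Between Hif1α KO and Hif2α KO kidneys 0 of 61 passed in edgeR (0.429% of all genes), and 7 had an unadjusted p under 0.05. Mcoln1 passed in each comparison with KI, with log2 fold changes of −0.43 in Hif1α KO, −0.44 in Hif2α KO and −0.66 in DKO kidneys (adjusted p = 0.0224, 0.0489 and 0.00229). Slc48a1, the lysosomal haem transporter, fell in Hif1α KO (log2 fold change −0.30, adjusted p = 0.0391), as did Neo1, a co-receptor of the hepcidin axis (−0.53, adjusted p = 0.0109). Slc48a1 and Neo1 also fell in DKO kidneys against KI. In Hif2α KO neither passed, but both had an unadjusted p under 0.05 in edgeR. Heph rose in Hif1α KO and DKO kidneys by 0.44 and 0.59 on the log2 scale. Hmox1 fell in DKO kidneys to 48.8 to 55.0 CPM (log2 fold change −1.31, adjusted p = 0.00783), and it was at 89.7 to 185 CPM in Hif1α KO, where it did not pass (adjusted p = 0.983). In Hif2α KO Hmox1 did not pass either, but it was at 66.7 to 86.5 TPM against 96.8 to 179 TPM in KI. Its unadjusted p in edgeR was under 0.05 in Hif2α KO against KI and between the single knockouts. Cp fell by 0.86 (adjusted p = 0.0191) and Id1, a target of BMP signalling, by 1.11 (adjusted p = 0.0227) in DKO kidneys, while Slc22a17, the receptor named for Lcn2, rose by 0.40 and the mitochondrial iron importer Slc25a37 by 0.31. In DKO kidneys against Cre(−) 42 of the 61 genes passed (58.3% of all genes), 10 higher (30.4%) and 32 lower (27.9%). Lcn2 (5.65), Cd163 (2.76) and Cp (2.15) had the largest log2 rises, and Lrp2 (−2.81), Cubn (−2.06) and Abcg2 (−1.96) the largest falls, of the genes without overlap between the groups.

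Epas1, which also has an IRE match, fell in PRCC-TFE3 KI against Cre(−) by 0.31 on the log2 scale (adjusted p = 0.0059). Transcripts with a hairpin in the same UTR did not all move one way: of those shown above with a 5′ UTR match Ftl1 rose, Fth1 did not pass and Slc40a1 and Epas1 fell, and of those with a 3′ UTR match Slc11a2 rose and Tfrc fell. Protein levels, iron content and binding of the iron regulatory proteins were not measured in these data.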

How the data were processed

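RNA-seq reads of 17 whole-kidney polyA libraries (TruSeq Stranded) had been trimmed by the authors with Trim Galore 0.6.6 and cutadapt 2.5, aligned with STAR 2.7.9a and quantified with RSEM. The submitters' processing notes list a human genome build beside GRCm38, and the transcripts in the tables are mouse. The authors deposited expected counts per transcript (RSEM estimates, not normalized) and TPM per transcript (scaled for length and depth) as tables of all libraries.

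Of 119353 transcripts, 116770 (97.8%) were matched by identifier to GENCODE M21 and summed to 35971 genes, holding 99.04 to 99.24% of the counts. The matched set has 2 Fth1 and 3 Ftl1 pseudogenes, which were kept apart. Gene sums were rounded and tested with edgeR 4.0.16 (quasi-likelihood, TMM, filterByExpr with a minimum count of 10, 1 coefficient per group over all 17 libraries, Benjamini-Hochberg threshold 0.05). The median total was 18635282 counts per library. No 2 libraries held identical values. Ratios and shares were compared by two-sided exact permutation tests. DESeq2 1.42.0, limma 3.58.1 on log2 TPM, other filters and normalizations, and leaving out each library served as alternatives. R 4.3.3 and Python 3.11.15 with scipy 1.17.1 were used. The fits were tested on simulated data.

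The 10 genes and all lists were chosen with earlier results of these data known. All 10 were named in every comparison. From the wider list the text names the 3 genes with the largest called change in each direction, a mean of 1 TPM or more in one of its groups and no overlap. Further genes of that list (Nfs1, Iscu, the haem synthesis enzymes, Hmox1, Mcoln1 and, against Cre(−), Cp, Heph, Aco1, Fbxl5 and Hamp) were named after their values were seen.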

Additional observations from a re-analysis of the deposited data

Results flagged for a closer look

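Tfrc in replicate 2 of PRCC-TFE3 KI/Hif1α KO, at 29.7 CPM, lay apart from the other 3 replicates at 31.9 to 32.1 CPM: its gap to the nearest was 0.912 of the range of the group, above Dixon's 95% critical value for 4 samples. It was the 1 value so marked among 26 groups of 4 libraries examined, where chance marks about 1 in 20. The group as a whole spanned 2.44 CPM.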

How the results depend on the processing

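The count of the 10 genes called stayed at 7 or 8 for PRCC-TFE3 KI against Cre(−) under every alternative run, but the genes called did not stay the same. On log2(TPM + 1) Ncoa4, Slc40a1 and Ireb2 lost the call and Fth1 and Hfe gained one. The count was less stable between fusion kidneys, where the main counts were 1 (Hif1α KO), 0 (Hif2α KO) and 3 (DKO) against KI. For Hif1α KO against KI it was 2 with DESeq2, 0 on log2(TPM + 1) and 0 on log2(TPM + 0.1), and 0 to 1 with 1 library left out. For DKO against KI it was 1 with only the 2 groups fitted, 0 on log2(TPM + 1) and 0 on log2(TPM + 0.1), and 0 to 3 with 1 library left out. Between the single knockouts DESeq2 called 1. With the full-length transcripts alone, chosen after seeing the data, the Ftl1 to Fth1 log2 difference of KI against Cre(−) was 0.62 and that of the Slc11a2 share 15.9 percentage points. The cause of these shifts was not tested. The lowest count of any of the 10 genes in a library was 180 (Steap3), far above the floor of 3 counts, so depth limits none of them. Over all genes, calls for Hif2α KO against KI numbered 236, against 1015 with DESeq2, 2 with only both groups fitted, 76 with the block and 83 on log2(TPM + 0.1). For Hif1α KO against KI they numbered 925, against 1664 with DESeq2, 246 with only both groups fitted, 479 with the block, 631 on log2(TPM + 1) and 552 on log2(TPM + 0.1). For DKO against KI they numbered 2164, against 1028 with only both groups fitted, and between the single knockouts 73, against 543 with DESeq2, 132 with only both groups fitted, 19 with the block, 29 and 27 on the TPM scales and 41 with coding transcripts. With 1 library left out they ranged from 13 (KI replicate 3) to 857 (KI replicate 1) for Hif2α KO against KI, from 273 (Hif1α KO replicate 3) to 1169 (Hif1α KO replicate 2) for Hif1α KO against KI, from 722 (DKO replicate 2) to 2291 (KI replicate 1) for DKO against KI and from 1 (Hif2α KO replicate 2) to 193 (Hif2α KO replicate 1) between the single knockouts, the library left out in parentheses, so the shares of all genes in these comparisons move with single libraries. Higher and lower calls numbered 5167 and 4749 for DKO against Cre(−), but 10008 and 1845 on log2(TPM + 1) and 3364 and 6317 after median centring, and those of DKO against KI 1111 and 1053, but 1206 and 520 and then 623 and 1490. After centring, KI against Cre(−) had 4218 and 5606, Hif1α KO against KI 257 and 514 (438 and 487 on counts) and Hif2α KO against KI 64 and 104 (126 and 110 on counts, 137 and 57 on log2(TPM + 1)).

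Replicate numbers did not pair the libraries: over 31 same-numbered pairs r ran from -0.223 to 0.249, 4 were over 0.1, and 3 libraries matched best with their own number. With the replicate block, 0 of the 10 genes passed in Hif1α KO and 1 in DKO against KI, and Tf differed by 0.02 (log2) between the single knockouts, against -0.04 without it.

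Of the members' values under alternatives, 935 kept direction and side of the threshold, 56 lost a call, 14 gained one and 35 turned sign. On log2(TPM + 1) and log2(TPM + 0.1), in that order, DKO against Cre(−) became 0.31 and 0.31 for Fth1, 0.01 and 0.01 for Slc40a1 and 0.08 and 0.09 for Ireb2, Ncoa4 in DKO against KI 0.03 and 0.03, and between the single knockouts Tfrc -0.13 and -0.14 and Hfe -0.07 and -0.07. With median-centred TPM, added after seeing the data, DKO against KI became -0.05 for Tfrc, -0.07 for Hfe and -0.05 for Ireb2, and Tfrc between the single knockouts -0.04. With only the floxed Cre(−) kidneys Hfe was -0.04 (KI) and -0.01 (DKO). With 1 library left out, the log2 differences that turned sign ranged from -0.05 to 0.37 for Fth1 in KI and from -0.05 to 0.33 for Slc11a2 in DKO, both against Cre(−). Against KI, Hif1α KO ranged from -0.58 to 0.05 for Tf and from -0.32 to 0.10 for Fth1, Hif2α KO from -0.54 to 0.09 for Tf and from -0.16 to 0.32 for Slc40a1, whose other values included -0.05 and -0.08, and DKO from -0.01 to 0.47 for Slc40a1, -0.04 to 0.14 for Hfe and -0.01 to 0.06 for Ireb2. Between the single knockouts the ranges were -0.06 to 0.10 for Tfrc, -0.13 to 0.08 for Tf and -0.21 to 0.01 for Ftl1. Of the differences that turned sign, the main edgeR test called 2, those of Slc40a1 and Ireb2 in DKO against Cre(−). Their main values were -0.55 and -0.48 (adjusted p = 0.0206 and 0.0042). No difference was called under the alternative in which its sign had turned. With the coding transcripts alone Ftl1 in DKO against Cre(−) was 0.13 (adjusted p = 0.691).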
